A study of Mus musculus with 20 samples.

Results

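ABT-263, also called navitoclax and written ABT263 in the labels, was compared with a control compound in the kidneys of mice whose blood-forming cells had lost the Y chromosome. The 8 libraries used here, of 20 in the series, were chosen by their labels alone: 4 LOY + Control kidneys (animals 6, 8, 9 and 10) and 4 LOY + ABT263 kidneys (animals 15, 16, 17 and 18). LOY stands for loss of the Y chromosome. All 8 animals were aged mice that had received a bone marrow transplant and carried the LOY state in their blood-forming cells, so the controls shared the LOY state. The labels give no dose, vehicle, duration or exact age, and they do not say how the Y chromosome was lost. The transplant replaces blood-forming cells, while the tubules, vessels and podocytes of the kidney remain those of the host. Whole kidney RNA was sequenced, so fewer cells of a type and less RNA per cell cannot be told apart in any value below. The other table of the series holds 6 Control and 6 LOY kidneys without a compound, and it is used only to set values beside those of the treated animals.

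ABT-263 is a small molecule that binds the survival proteins BCL-2, BCL-XL and BCL-w, which normally hold the death effectors BAX and BAK in check. Senescent cells, which have stopped dividing and secrete inflammatory proteins, often lean on these survival proteins, and ABT-263 is widely used as a senolytic, a compound that kills such cells. Platelets depend on BCL-XL and fall in number during ABT-263 treatment, and mature lymphocytes depend on BCL-2. In the kidney, senescent tubule cells accumulate with age and after injury.

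Total counts ran from 14587809 (ABT263 animal 18) to 20791633 (control animal 8), and 16956 of 30809 rows of the table had enough counts to test. The 57 proximal tubule markers, which define the main cell type of kidney cortex, were all tested and summed to 33900 to 50700 CPM (counts scaled to a common library total) in each kidney. Compound and animal number cannot be told apart here, since every control animal was numbered 10 or below and every ABT263 animal above 10. In the 12 kidneys without a compound, only Control animal 3 and LOY animals 5, 8, 9 and 10 were numbered 10 or below. A term for an animal number over 10, fitted there beside the group, passed the threshold for 345 genes higher (2.20%) and 267 lower (1.70%) with edgeR. For that reason the value of this number term, as the log2 difference of high over low numbers, is given beside a gene below where it passed that threshold, or where it had the same sign and was at least as large as the difference with ABT263. For a few genes it is also given where it came close to that difference. For the gene lists it is the median over the members, given by the same rule of sign and size. No number term was available for Igkc, Ighg2c, Ighm, Igha, Ighg2b, Trbc2, Ccn1 and Hba-a1. The same holds for the lists of antibody gene segments and of mitochondrially encoded genes. For these a missing term does not mean a small one. Control animal 6 and ABT263 animal 16 stood apart from the rest of their groups. Mitochondrially encoded genes took 11.1% of the counts of control animal 6 and 7.91% to 9.51% in the other kidneys. Counts led with below are therefore also given without these 2 kidneys, a choice made after the data were seen. In the 6 kidneys left, 1.24% of 17180 rows passed as higher and 1.02% as lower with edgeR. Every list count from those 6 kidneys is to be read beside these shares.

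In the comparison of all 8 kidneys, 0 of 16956 rows passed an adjusted p of 0.05 in the edgeR quasi-likelihood test (0% called). At an unadjusted p under 0.05 there were 500 rows higher (2.95%) and 502 lower (2.96%) with ABT263. The 4 values of one group lay wholly above or below those of the other for 346 rows higher (2.04%) and 381 lower (2.25%). Whatever the p, 8371 rows had a higher value (49.4%) and 8585 a lower value (50.6%) with ABT263, and the median log2 fold change of all rows was 0.00. Of the other tests, DESeq2 called 16 rows higher (0.0945%) and 28 lower (0.165%), and voom with sample quality weights called 3 higher (0.0177%) and 8 lower (0.0472%). Of these calls, 9 were shared by both tools: Herc3, Vcan and Slc14a2 as higher, and Igkc, Ccn1, Ier3, Dnajb4, Pmaip1 and Atf4 as lower. Bcl6 was called by DESeq2 (adjusted p = 1.63e-13) but not by voom (adjusted p = 0.0595). No gene is therefore said to have risen or fallen in the 8 kidneys; values are given as higher or lower, with the log2 fold change (ABT263 over control compound) ± its standard error and the edgeR adjusted p.

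Among the 16 genes of smallest p, 8 in each direction, Bcl6 led those that were higher. Bcl6 encodes a zinc finger repressor of transcription, known from germinal centre B cells and from the liver, where growth hormone signalling keeps it low. It stood at 17.4, 24.9, 23.3 and 18.4 CPM in control animals 6, 8, 9 and 10, and at 115, 53.7, 105 and 68.8 CPM in ABT263 animals 15, 16, 17 and 18. All 4 ABT263 kidneys lay above every control kidney, with the lowest in animal 16. The log2 fold change was 2.03 ± 0.25 (adjusted p = 0.265). In the 12 kidneys without a compound Bcl6 ran from 13.8 CPM (LOY animal 8) to 97.2 CPM (Control animal 11), which covers most of the range seen here. The number term for Bcl6 in those kidneys was 0.37 ± 0.48.

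Vcan, which encodes the matrix proteoglycan versican, was at 4.70, 2.37, 1.86 and 1.70 CPM with the control compound and at 7.91, 5.89, 11.5 and 8.21 CPM with ABT263. The groups did not overlap, control animal 6 being the highest of the controls (1.67 ± 0.33, adjusted p = 0.536). In the kidneys without a compound Vcan ran from 1.71 CPM (Control animal 12) to 17 CPM (Control animal 16), which covers nearly the whole range seen here. The remaining 6 genes differed by less. Herc3, a gene for a HECT-type ubiquitin ligase, was at 78.3 to 92.8 CPM against 116 to 126 CPM (0.45 ± 0.08, adjusted p = 0.327). Its number term in the kidneys without a compound was 0.90 ± 0.18 (adjusted p = 0.0264 in edgeR), larger than that difference and of the same sign. Wdr6, a WD-repeat gene, was at 39.0 to 44.5 against 50.7 to 62.8 CPM (0.46 ± 0.09). The number term of Wdr6 was 0.42 ± 0.18, close to that difference. Napepld, which encodes an enzyme that makes N-acylethanolamine lipids, was at 7.40 to 10.5 against 10.9 to 16.3 CPM (0.73 ± 0.17). In these 3 genes, too, no control kidney reached the lowest ABT263 kidney. Asic1, an acid-sensing ion channel gene, gave 0.78 ± 0.18. Ttll10, a gene of the tubulin ligase-like family, gave 0.54 ± 0.12, and Pitpnc1, a phosphatidylinositol transfer protein gene, gave 0.39 ± 0.08 (number term 0.36 ± 0.11).

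Igkc, the constant region of the kappa light chain of antibodies, was the lower gene of smallest p. Its level was 161, 258, 233 and 282 CPM in the control kidneys and 60.7, 47.9, 57.5 and 95.4 CPM in the ABT263 kidneys. Even the highest ABT263 kidney, animal 18, was below the lowest control kidney, animal 6 (-1.84 ± 0.24, adjusted p = 0.265). Ighg2c, a heavy chain constant region, was at 4.93, 12.5, 18.6 and 6.68 CPM against 1.32, 1.04, 1.71 and 0.345 CPM (-3.24 ± 0.52, adjusted p = 0.327). Constant region genes of one class are near copies of each other, so reads may be split between them.

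Ccn1 encodes a secreted matrix protein and is a target of the YAP pathway. It was at 71.1, 70.2, 86.6 and 71.0 CPM with the control compound and at 30.6, 51.7, 34.5 and 29.7 CPM with ABT263, where animal 16 was highest (-1.03 ± 0.17, adjusted p = 0.327). Ier3, an immediate early gene that modulates cell survival, was at 53, 37.2, 38.9 and 47.6 against 17.8, 29.7, 19.4 and 20.6 CPM (-1.01 ± 0.17, adjusted p = 0.327). Again the groups did not overlap and animal 16 was nearest to the controls. Map3k5, which encodes the stress kinase ASK1, was at 92.6 to 101 CPM against 70.7 to 78.3 CPM (-0.41 ± 0.07). Sec14l1 gave -0.47 ± 0.08, Tmem252 gave -0.80 ± 0.15, and Dnajb4, a partner of the HSP70 chaperones, gave -0.43 ± 0.08.

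**Figure D1:**
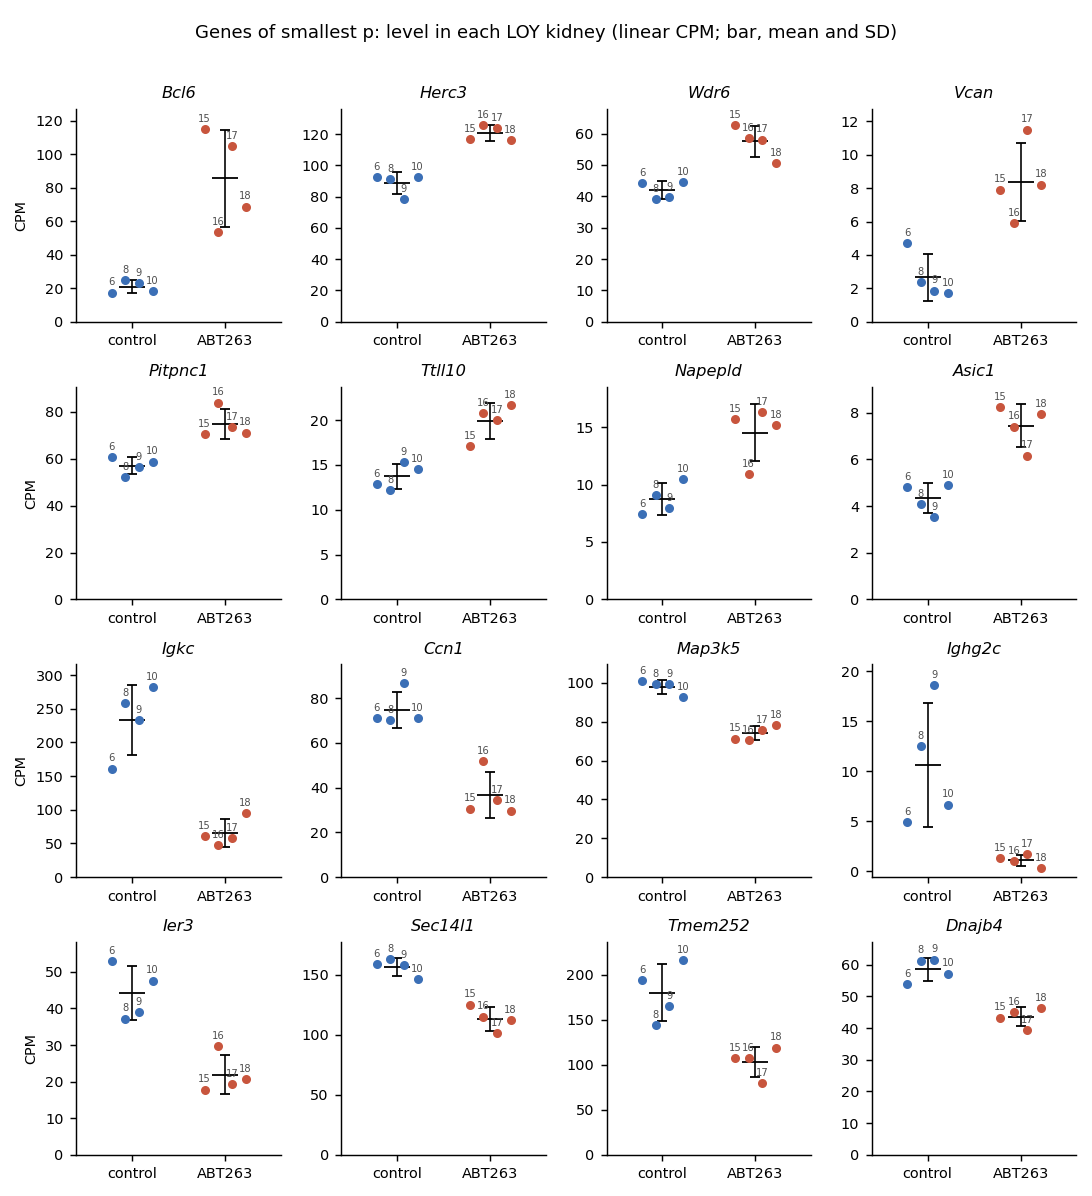
Level of the 16 genes of smallest p in each of the 8 LOY kidneys, in CPM on linear axes that include 0; points are kidneys labelled with the animal number, and bars are the group mean and its SD (n = 4 per group). The top rows hold the 8 higher genes and the bottom rows the 8 lower genes; Bcl6 reached 53.7 to 115 CPM with ABT263 against 17.4 to 24.9 CPM, and Igkc 47.9 to 95.4 against 161 to 282 CPM.

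**Figure D2:**
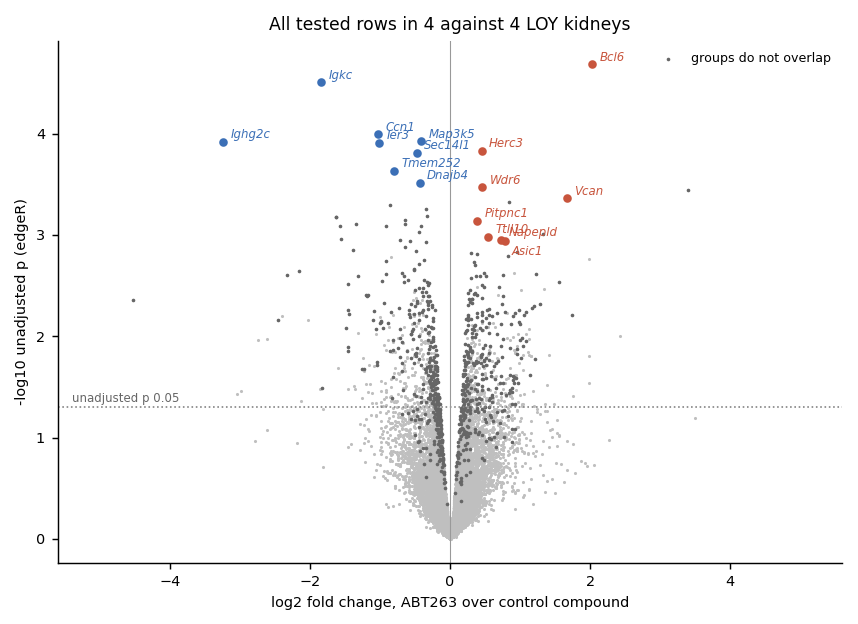
Each point is 1 of 16956 tested rows, with the log2 fold change (ABT263 over control compound) on the x axis and the -log10 of the unadjusted edgeR p on the y axis; dark points are the 727 rows (4.29%) whose groups did not overlap. The 16 named genes are coloured by direction, and 0 rows passed an adjusted p of 0.05.

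By annotation GENCODE M21 on GRCm38, the build that mm10 names, Bcl6 lies on the minus strand at chr16:23965052-23988852 and Igkc at chr6:70726435-70726966 on the plus strand. Ccn1 lies at chr3:145646976-145649981 and Ier3 at chr17:35821684-35822923. The counts are per gene, so they do not say which exons or start sites were used.

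Genes of the growth hormone and STAT5 response were set beside Bcl6 after it had been seen to lead. STAT5 is the transcription factor that growth hormone and several cytokines activate, and it binds sites of the form TTCNNNGAA. Of 22 genes listed, Bcl6 itself among them, 20 were tested and 0 passed. At an unadjusted p under 0.05, 3 were higher, Bcl6 included, and 1 lower. The median was 0.03 (number term 0.29). Cish, a feedback inhibitor of cytokine receptors that STAT5 induces, was at 27.2, 59.3, 29.7 and 50.4 CPM with the control compound and at 13.3, 21.6, 16.6 and 14.5 CPM with ABT263. No ABT263 kidney reached the lowest control (-1.34 ± 0.27, adjusted p = 0.536). In the kidneys without a compound Cish ran from 15.7 CPM (Control animal 3) to 59 CPM (Control animal 13), which covers most of the range seen here. Socs2, another induced feedback gene, was at 27.3, 22.5, 38.9 and 42.9 against 13.5, 41.7, 14.9 and 17.3 CPM, and animal 16 lay within the controls (-0.59 ± 0.39). Igf1, the classic growth hormone target, overlapped (0.19 ± 0.21), and Stat5a itself gave 0.30 ± 0.10 (adjusted p = 0.728, number term 0.43). Mup3 averaged under 1 CPM over the 8 kidneys and belongs to a large family of near copies, so its 3.39 ± 0.67 is uncertain.

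The start regions of Bcl6 and Cish hold this letter pattern, and the stretches around it are shown because the 2 genes differed in opposite directions. RefSeq (GRCm38.p6) gives 2 start regions for Bcl6 and 1 for Cish, each running from 250 bases before to 50 bases after the start. The pattern was searched for as TTCNNNGAA, which reads the same on both strands. It occurred 3 times in the inner Bcl6 region (chr16:23981234-23981533), once in the outer one (chr16:23988803-23989102) and 2 times in the Cish region (chr9:107296409-107296708), where the matches lie just after the start and share flanking letters. Among all 32851 start regions, 8.30% held at least 1 match, 0.457% at least 2 and 0.0335% at least 3. Capitals mark the pattern, each line is 5′ to 3′ on the strand of the gene, and a match is a description of letters, not a site shown to be bound in these kidneys.
Bcl6, inner start region, chr16:23981433-23981461, minus strand: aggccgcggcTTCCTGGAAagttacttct
Bcl6, inner start region, chr16:23981387-23981415, minus strand: ggcaggagtgTTCTGTGAAatccttagag
Bcl6, inner start region, chr16:23981353-23981381, minus strand: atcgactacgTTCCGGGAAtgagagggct
Bcl6, outer start region, chr16:23988952-23988980, minus strand: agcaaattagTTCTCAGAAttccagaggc
Cish, chr9:107296649-107296677, plus strand: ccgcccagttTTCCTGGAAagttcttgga
Cish, chr9:107296660-107296688, plus strand: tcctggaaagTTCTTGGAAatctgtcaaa

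The transcripts of the 3 proteins that ABT-263 binds differed little. Bcl2 was at 17.5, 18.3, 21.3 and 20.8 CPM against 20.3, 20.2, 23.8 and 21.5 CPM (0.14 ± 0.11, adjusted p = 0.863). Bcl2l1, which encodes BCL-XL, was at 105 to 134 against 97.5 to 137 CPM (-0.06 ± 0.12, adjusted p = 0.961, number term -0.32). Bcl2l2, which encodes BCL-w, was at 48.0 to 67.6 against 62.3 to 66.3 CPM (0.07 ± 0.11, adjusted p = 0.940, number term 0.30). The groups overlapped in all 3 genes, and binding of the compound to the proteins was not measured.

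Of the 21 members of the BCL-2 family listed, 19 were tested, 0 passed and the median was -0.02, with values from -1.04 to 0.20 (number term -0.08). At an unadjusted p under 0.05, 0 were higher and 2 lower. Pmaip1 encodes NOXA, a BH3-only protein that neutralises MCL-1. It was at 35.2, 28.9, 26.6 and 32.3 CPM with the control compound and at 17.7, 24.7, 16.3 and 19.5 CPM with ABT263, without overlap (-0.65 ± 0.14, adjusted p = 0.536). Bcl2a1b, a survival gene of blood cells with near copies in the genome, was at 1.14 to 1.65 against 0.311 to 1.04 CPM (-1.04 ± 0.38, adjusted p = 0.75). Mcl1, the survival protein that ABT-263 does not bind, was at 220, 196, 177 and 198 against 148, 216, 158 and 154 CPM, with animal 16 among the controls (-0.23 ± 0.12, adjusted p = 0.846). Without control animal 6 and ABT263 animal 16, Pmaip1 (-0.72, adjusted p = 0.00305) and Mcl1 (-0.31 ± 0.07, adjusted p = 0.0273) passed as lower. Of 26 genes of the apoptosis machinery, all tested, 0 passed, 1 was higher and 0 lower at an unadjusted p under 0.05, and the median was -0.06. The p53 target list, tested in all 36 genes, had a median of -0.09 with 0 higher and 2 lower, Pmaip1 among them; Mdm2, the ubiquitin ligase of p53, gave -0.33 ± 0.12.

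Most platelet genes had too few counts to compare. Only 6 of 15 listed genes had enough counts, and their median was -0.03 (number term -0.27) with 0 past the threshold. At an unadjusted p under 0.05, 1 was higher and 0 lower, and 1 did not overlap. Pf4, a platelet chemokine, was at 2.35, 2.99, 1.5 and 3.64 CPM against 2.64, 4.74, 1.40 and 2.55 CPM (0.10 ± 0.38, adjusted p = 0.978). The defining platelet genes Gp9 and Gp6 had 3 and 2 counts in all control kidneys together and 3 and 0 in the ABT263 kidneys, which is too few to compare. The higher member was Nbeal2, needed for platelet granules but not confined to platelets. It was at 66.2 to 73.6 against 79.8 to 85.9 CPM, without overlap (0.23 ± 0.07, adjusted p = 0.662).

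Most of the antibody genes that could be tested had lower values. Of 203 immunoglobulin gene segments in the table, 30 had enough counts to test. This filter lets in segments through the group where they are high, so their counts, median and summed level are a description and not a test. Of the 30, 26 were lower, 14 were lower at an unadjusted p under 0.05 (0 higher), 7 did not overlap, and the median was -1.64. Their summed level was 466, 848, 726 and 804 CPM in the control kidneys and 229, 169, 203 and 290 CPM in the ABT263 kidneys. This list was drawn up after Igkc had been seen, and Igkc is counted in the 14, the 7 and the sum. Much of the sum came from Igkc and Ighm, at 258 and 378 of the 848 CPM in control animal 8. Ighm, the heavy chain of IgM, was at 166, 378, 244 and 154 against 46.5, 14.4, 68.2 and 58.7 CPM (-2.33 ± 0.51, adjusted p = 0.657). Igha, the heavy chain of IgA, overlapped at 42.3 to 251 against 32.7 to 95.1 CPM (-0.78 ± 0.59), as did Ighg2b (-1.23 ± 0.68), which in animal 16 stood at 20.4 CPM.

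The list of B cell and plasma cell markers held 23 genes, of which 18 were tested; 0 passed, 8 were lower and 0 higher at an unadjusted p under 0.05, 6 did not overlap, and the median was -0.76. Of these 18, 7 were antibody genes already counted above. Among the other 11, 9 were lower, 4 of them at an unadjusted p under 0.05 (0 higher), 3 did not overlap and the median was -0.26. Cd79a, part of the B cell receptor, was at 0.880, 1.19, 1.5 and 1.2 against 0.462, 0.405, 0.259 and 0.414 CPM (-1.63 ± 0.35, adjusted p = 0.536). Cd22, an inhibitory receptor of B cells, was at 1.10 to 2.52 against 0.659 to 0.966 CPM (-1.10 ± 0.33). Jchain, the joining chain of secreted IgM and IgA, was at 34.5, 44.6, 50.5 and 72.8 against 20.9, 12.4, 17.4 and 31.5 CPM (-1.31 ± 0.31, adjusted p = 0.657). In all 3 genes every ABT263 kidney was below every control kidney. In the 6 kidneys left without animals 6 and 16, Igkc (-1.86, adjusted p = 0.0355) and Cd79a passed as lower, together with Xbp1, the plasma cell transcription factor that is also expressed in tubules. The median number term for the list in the other table was -0.10, over members other than the antibody genes, which had no number term. It stands beside the median of -0.26 and not beside -0.76.

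Macrophage genes were lower to a smaller degree. All but 1 of 38 listed genes were tested; 30 were lower, 10 of them at an unadjusted p under 0.05 (0 higher), 2 did not overlap and the median was -0.36. Lyz2, the macrophage lysozyme, was at 192, 237, 134 and 250 CPM against 135, 89.6, 111 and 119 CPM, where control animal 9 lay within the ABT263 range (-0.84 ± 0.19, adjusted p = 0.648). The complement genes C1qa (-0.51 ± 0.17, number term -0.60), C1qb (-0.43 ± 0.14) and C1qc (-0.53 ± 0.16), the protease gene Ctss (-0.46 ± 0.14) and the Fc receptor gene Fcgr3 (-0.62 ± 0.22) overlapped between groups. The lineage markers Csf1r (-0.14 ± 0.17), Adgre1 (-0.31 ± 0.19) and Mrc1 (-0.40 ± 0.23) had larger errors relative to their size. The summed level of the list was 1210 to 1750 CPM against 1060 to 1300 CPM. In the same 6 kidneys 2 of the genes passed, both lower, Ctss and Fcgr3. The median number term of the list was -0.22.

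Genes that present antigen to T cells through MHC class II had lower values with ABT263. A list joining antigen presentation with interferon gamma targets held 43 genes, all tested, with a median of 0.00, 6 lower and 0 higher at an unadjusted p under 0.05. Cd74, the invariant chain, was at 568, 800, 494 and 695 against 425, 435, 498 and 430 CPM (-0.52 ± 0.14, adjusted p = 0.657), and H2-Aa was at 212, 325, 201 and 294 against 168, 154, 196 and 184 CPM (-0.56 ± 0.16, adjusted p = 0.657). Only control animal 9 was within the ABT263 range for Cd74, and the groups did not overlap for H2-Aa. H2-Eb1 (-0.49 ± 0.15), H2-Ab1 (-0.39 ± 0.14), B2m (-0.26 ± 0.10, number term -0.34), the light chain of class I, and the receptor gene Ifngr1 (-0.32 ± 0.08) were the others. Without animals 6 and 16 the median was -0.16 and 2 members passed as lower. These class II genes are expressed by B cells, macrophages and dendritic cells, whose marker lists were also lower by their medians (dendritic and mast cells -0.21, number term -0.32). What part those cells have in the class II values was not tested. Of 40 genes of the type I interferon response tested, 3 were higher and 0 lower at an unadjusted p under 0.05, with a median of 0.09.

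T and natural killer cell genes had a median of -0.46 over 31 tested of 39, of which 27 were lower, 4 at an unadjusted p under 0.05 and 2 without overlap. That median depended on control animal 8, the kidney with the highest sum: it was -0.16 without it and -0.64 without control animal 6. Without animals 6 and 16 it was -0.74, and 1 member passed as lower. Cd4, the helper T cell coreceptor, was at 2.70, 4.75, 2.22 and 2.84 against 1.65, 1.27, 2.17 and 1.79 CPM (-0.86 ± 0.29, adjusted p = 0.728). Cd8a, the killer T cell coreceptor, overlapped (-0.21 ± 0.27), while Trbc2, a T cell receptor constant region, did not (-0.98 ± 0.30). The summed level of the list was 41.2 to 97.5 CPM against 41.7 to 56.5 CPM. Of 27 tested immune checkpoint genes, receptors and ligands that restrain immune cells, 0 were higher and 0 lower at an unadjusted p under 0.05, and the median was -0.10. Cd274, which encodes PD-L1, was at 7.92, 7.50, 5.64 and 7.38 against 5.87, 6.13, 10.5 and 7.52 CPM (0.08 ± 0.21, adjusted p = 0.971). Pdcd1, which encodes its receptor PD-1, had too few counts to test: 4, 21, 8 and 15 in the control kidneys and 1, 9, 16 and 1 in the ABT263 kidneys. Tigit, another checkpoint receptor below the filter and singled out after its counts were seen, had 56, 18, 8 and 24 counts against 5, 6, 8 and 2. The lowest control and the highest ABT263 kidney were equal, and control animal 6 held 56 of the 106 control counts.

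Senescence genes gave values to both sides of 0. Cdkn1a, which encodes the cell cycle inhibitor p21, was at 117, 114, 95.9 and 104 CPM with the control compound and at 101, 111, 80.7 and 82.3 CPM with ABT263 (-0.20 ± 0.12, adjusted p = 0.847, number term -0.25). Cdkn2a, which encodes p16, the marker most used to find senescent cells, had only 0, 4, 10 and 2 counts against 8, 5, 2 and 4, so a difference was not detectable at this depth. Gdf15, a stress cytokine, was at 29.3 to 45.8 against 15.1 to 46.1 CPM, with animal 16 highest (-0.53 ± 0.33, adjusted p = 0.847, number term -0.67). Of 20 tested regulators and markers, 1 was higher (Igfbp5, 0.81 ± 0.25) and 1 lower (Cdkn1c, -0.32 ± 0.10) at an unadjusted p under 0.05, 2 did not overlap, both lower, and the median was -0.01 (number term -0.09). Cdkn1c, a cell cycle inhibitor, was at 27.6 to 35.1 against 22.0 to 26.0 CPM, and its number term was -0.79 (adjusted p = 0.0317 in edgeR). The other was Dpp4, a membrane peptidase, whose groups only just parted (-0.13 ± 0.07). Without animals 6 and 16, 0 of the 20 passed.

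Secreted factors of senescent cells had a median of -0.14 (number term -0.31) over 43 tested genes, 0 of which were higher and 3 lower at an unadjusted p under 0.05. These were Ccl2, a chemokine for monocytes, at 4.28, 11.3, 9.18 and 9.47 against 4.95, 6.01, 5.28 and 5.66 CPM (-0.65 ± 0.26), Ccl8 (-0.80 ± 0.30) and the membrane protease gene Mmp14 (-0.40 ± 0.11, number term -0.58). Control animal 6 was below every ABT263 kidney in Ccl2. Of the 43, 5 passed as lower without animals 6 and 16: Ccl2, Ccl20, Lif, Mmp3 and Timp1. The number terms of Lif, Mmp3 and Timp1 were -0.74, -0.97 and -1.67, and that of Timp1 passed (adjusted p = 0.0232 in edgeR). Tgfb1, the main fibrosis cytokine, overlapped at 20.8 to 34.0 against 22.0 to 32.3 CPM (-0.04 ± 0.18, adjusted p = 0.988, number term -0.41).

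**Figure D3:**
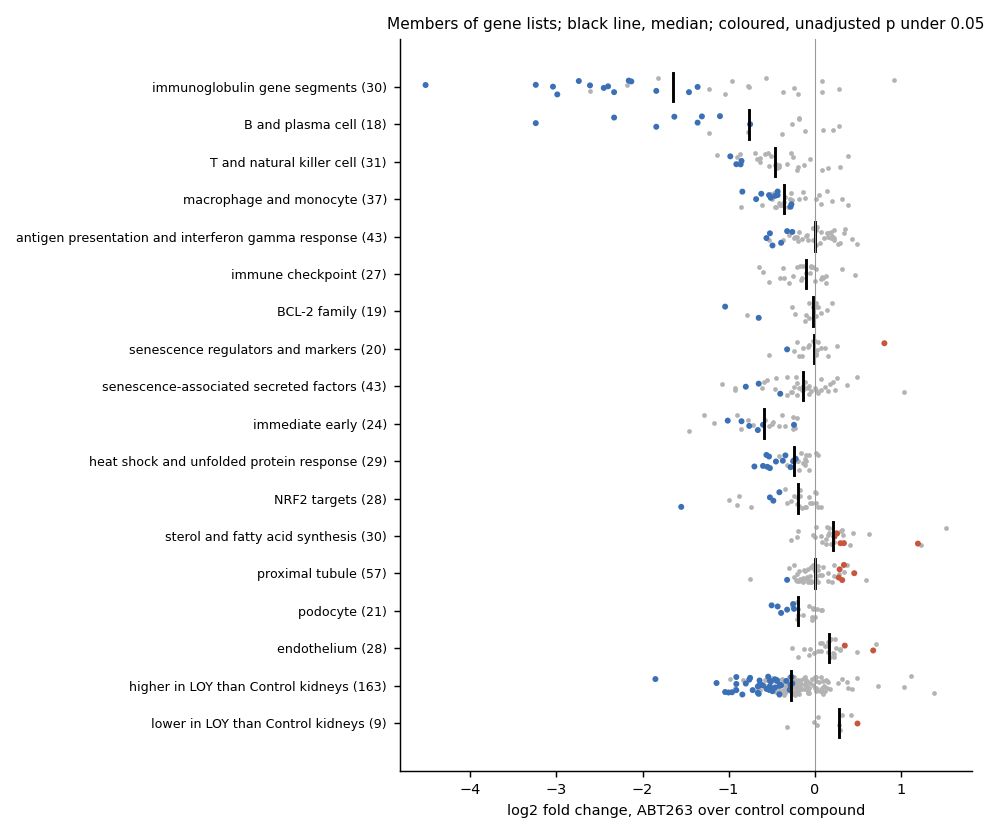
Log2 fold change (ABT263 over control compound) of each tested member of 18 gene lists, whose number of tested members is in brackets; coloured points had an unadjusted p under 0.05 and the black line is the list's median. The antibody segments reach lowest with a median of -1.64, the BCL-2 family and the senescence regulators lie around 0, and 0 members passed an adjusted p of 0.05.

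Injury genes were dominated by a single ABT263 kidney. Havcr1, the gene of KIM-1, a protein of damaged tubules, was at 50.9, 106, 50.6 and 119 CPM with the control compound and at 41.5, 735, 28.1 and 55.0 CPM with ABT263. Animal 16 alone was far above the rest, and its 3 companions lay within or below the control range (1.39 ± 1.16, adjusted p = 0.877). Lcn2, which encodes the injury marker NGAL, was at 44.7, 34.6, 15.4 and 47.8 against 18.3, 254, 18.4 and 18.8 CPM (1.12 ± 1.05, adjusted p = 0.893). Spp1, osteopontin, was at 2120 to 3140 against 1410 to 2100 CPM apart from 17800 CPM in animal 16. Col1a1, the main fibrillar collagen gene, was at 32.5, 85.0, 65.0 and 92.1 against 61.7, 175, 49.7 and 45.8 CPM (0.28 ± 0.53, adjusted p = 0.960).

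Without animals 6 and 16 the direction of these genes turned: Havcr1 was -1.15 (adjusted p = 0.330), Lcn2 -0.82 (0.471), Spp1 -0.62 and Col1a1 -0.62. Over the whole injury list, 37 of 38 genes were tested, with a median of -0.18 (number term -0.47), and 5 were lower and 0 higher at an unadjusted p under 0.05. They included the adhesion gene Vcam1 (-0.64 ± 0.26), the hyaluronan receptor gene Cd44 (-0.66 ± 0.26) and Anxa1 (-0.48 ± 0.11, number term -0.70). The median was -0.46 without ABT263 animal 16 alone and -0.06 without ABT263 animal 17. In the 6 remaining kidneys 8 members passed as lower, Cd44, Krt20 (number term -0.78) and Ccl2 among them, and 1, Cryab, as higher. Over all rows there, 1.02% passed as lower and 1.24% as higher. The matrix and fibrosis list of 53 tested genes had a median of -0.02 (number term -0.31), with 3 higher and 4 lower at an unadjusted p under 0.05. Its lower members were Ccn1, Ccn2 (-0.45 ± 0.13), Mmp14 and Acta2 (-0.45 ± 0.11), the smooth muscle actin of myofibroblasts and vessel walls. The number term of Acta2 was -1.02 ± 0.11 (adjusted p = 9.48e-04 in edgeR), larger than its difference here and of the same sign. Its higher members were Vcan, Tnc (0.52 ± 0.22) and Fbn1 (0.42 ± 0.19). Leaving out both kidneys, 9 passed as lower and 1, Vcan, as higher.

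**Figure D4:**
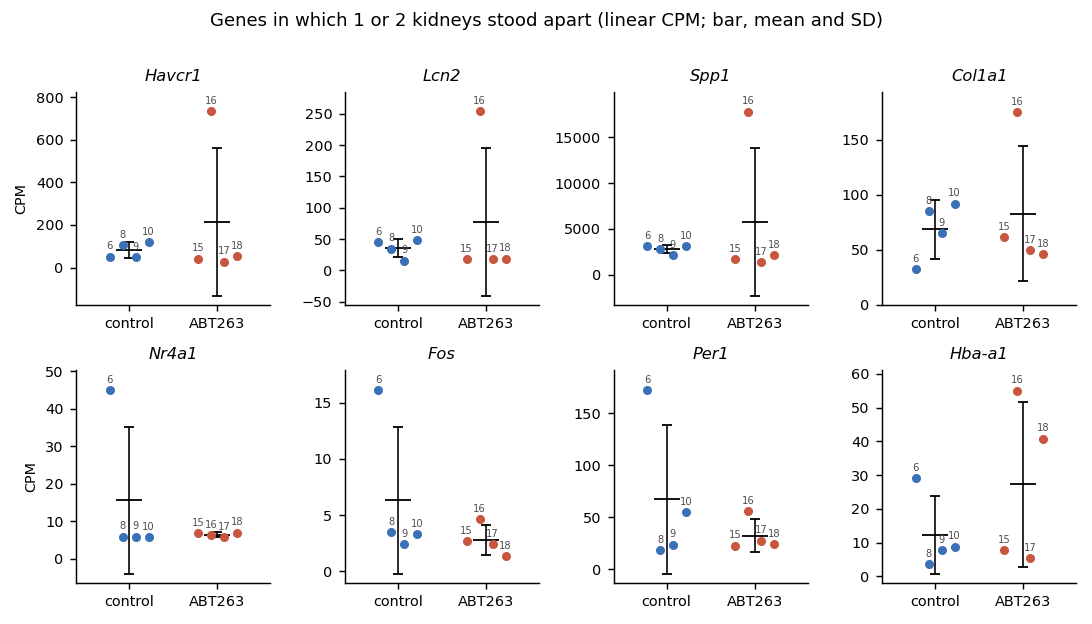
Level of 8 genes in each kidney in CPM on linear axes, chosen to show kidneys that stood apart; points carry the animal number and bars are the group mean and SD (n = 4 per group), which can run below 0 where 1 kidney is far off. ABT263 animal 16 is at 735 CPM for Havcr1 against 28.1 to 55.0 in its group, and control animal 6 is at 45.0 CPM for Nr4a1 against 5.68 to 5.88.

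Stress response genes were lower with ABT263 in 3 lists. Of 24 tested immediate early genes, which are switched on soon after a stimulus, all 24 were lower, 6 at an unadjusted p under 0.05 and 4 without overlap, and the median was -0.59. Control animal 6 was high in many of them: Fos, a subunit of the AP-1 factor, was at 16.1, 3.46, 2.40 and 3.34 against 2.70, 4.62, 2.43 and 1.38 CPM (-1.17 ± 0.65). Nr4a1, an inducible nuclear receptor, was at 45.0 CPM in that kidney and at 5.68 to 6.90 CPM in the other 7. The endothelial and epithelial factor genes Klf2 (-0.60 ± 0.16) and Klf4 (-0.66 ± 0.17) were lower in all 4 ABT263 kidneys than in any control. The number term of Klf2 was -0.57 ± 0.12 (adjusted p = 0.0324 in edgeR), about the size of its difference here. Leaving out control animal 6 alone, the median of the list was -0.21. Leaving out animals 6 and 16, it was -0.46 and 5 genes passed as lower, Ier3, Klf4 and Jun among them.

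Chaperone genes of the cytosol and the endoplasmic reticulum were lower in 27 of 29 tested, 13 of them at an unadjusted p under 0.05 (0 higher) and 4 without overlap, with a median of -0.24. Hspa8, the constitutive HSP70, was at 1150, 1750, 2400 and 1860 against 1070, 1370, 1400 and 1070 CPM (-0.55 ± 0.20, adjusted p = 0.760). Control animal 6 lay within the ABT263 range. Hsp90aa1, at 402 to 553 against 363 to 391 CPM, did not overlap (-0.34 ± 0.10, adjusted p = 0.657), nor did the small heat shock gene Hspb1 (-0.52 ± 0.15). The number term of Hspb1 was -1.16 ± 0.23 (adjusted p = 0.0232 in edgeR), larger than its difference here and of the same sign. Hspa5, the chaperone BiP, overlapped (-0.37 ± 0.15), and Dnajb1, the HSP40 that drives HSP70, gave -0.53 ± 0.15. With those kidneys left out, 8 genes passed, all lower, including Dnajb1, Hsp90aa1 and Hspa5. The median number term for the list was -0.25, as large as the difference seen here.

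Targets of NRF2, the factor that responds to oxidants, had a median of -0.19 over 28 tested genes, with 4 lower and 0 higher at an unadjusted p under 0.05; the number term for the list was -0.29. The median was -0.07 without control animal 6. Txnrd1, thioredoxin reductase, was at 370, 343, 333 and 290 against 252, 258, 232 and 261 CPM, without overlap (-0.41 ± 0.09, adjusted p = 0.536). Cbr3, a carbonyl reductase, was at 42.8, 19.2, 20.3 and 15.4 against 9.17, 8.26, 5.59 and 10.4 CPM (-1.55 ± 0.33, adjusted p = 0.566). Its number term was -1.38, close to that value. Gstm1 (-0.48 ± 0.17, number term -0.93) and Nqo1 (-0.52 ± 0.19, number term -0.65) were also lower, control animal 6 being the highest kidney in both. The list of ATF4 targets had a median of 0.04, and Atf4 itself was lower without overlap (-0.44 ± 0.10, adjusted p = 0.566).

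Tubule segment lists had medians near 0. The proximal tubule list had a median of 0.00, 5 members higher and 1 lower at an unadjusted p under 0.05. Slc2a2, the glucose exporter GLUT2 (0.46 ± 0.13), and Slc5a12, a lactate transporter (0.32 ± 0.11, number term 0.88), were higher, and Slc13a3, a dicarboxylate transporter, was lower (-0.32 ± 0.09). Without the 2 kidneys that stood apart 5 passed as higher, Slc2a2 and Slc5a12 among them, and 1 as lower. Loop of Henle, distal nephron and intercalated cell lists had medians of -0.04, 0.05 and 0.07, and the number terms of the last 2 were 0.31 and 0.10. Slc14a2, the urea transporter of the inner medulla, was at 95.1, 50.5, 56.5 and 58.9 against 151, 89.5, 130 and 121 CPM (0.91 ± 0.22, adjusted p = 0.657). Control animal 6 was above ABT263 animal 16. Without these 2 kidneys Slc14a2 gave 1.28 ± 0.09 (adjusted p = 2.70e-06 in edgeR) and was the 1 call of the loop list. There 2 distal nephron genes, Aqp4 and Elf5, also passed as higher, as did 1 intercalated cell gene, Slc4a1, which is also on the red cell list. Aqp2, the water channel of the collecting duct, was at 163 to 318 against 226 to 480 CPM (0.64 ± 0.26).

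Podocyte genes, from the filtering cells of the glomerulus, had a median of -0.19 over 21 tested, with 6 lower and 0 higher at an unadjusted p under 0.05. The number term for this list was also -0.19, and the median was -0.10 without ABT263 animal 18. Among the lower members, Wt1, a transcription factor of podocytes, gave -0.50 ± 0.20. Endothelial genes had a median of 0.17 over 28 tested, with 2 higher and 0 lower. Ptprb, a phosphatase of endothelial cells, was at 78.5 to 85.8 in the controls and at 113 to 117 in ABT263 animals 15, 17 and 18, but at 70.8 CPM in animal 16 (0.35 ± 0.14). Without the 2 kidneys 4 endothelial genes passed as higher.

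Genes of sterol and fatty acid synthesis had a median of 0.21 over 30 tested, with 5 higher and 0 lower at an unadjusted p under 0.05. Acaca, acetyl-CoA carboxylase, was at 34.5, 26.6, 39.5 and 43.0 against 154, 32.5, 41.3 and 102 CPM, so its difference (1.2 ± 0.5) came from animals 15 and 18. These 2 kidneys were also high in fat tissue genes: Plin1, which coats fat droplets, was at 0 to 9.57 CPM in the controls and at 41.6 and 31.3 CPM in animals 15 and 18 (2.05 ± 1.39), and Adipoq, adiponectin, at 18.3 and 17.9 CPM (1.36 ± 1.34). Their number terms were of opposite sign, -4.26 and -4.24. Over the 15 tested fat tissue genes the median was 1.21, the summed level was 1200 to 3040 against 1080 to 2130 CPM, and the number term was -3.97. How far attached fat moved Acaca was not tested; Dhcr7, of the sterol branch, gave 0.30 ± 0.11 with 23.5 to 31.7 against 20.4 to 23.9 CPM. Fatty acid oxidation (median -0.07), nuclear-encoded oxidative phosphorylation (-0.10, number term -0.38) and ribosomal protein genes (-0.14, number term -0.64) had 0 members past the threshold. Lower values were found in 34 of 47, 45 of 49 and 74 of 76 of their tested members, against 50.6% of all rows. At an unadjusted p under 0.05 in edgeR, 1, 2 and 2 were lower and 0 higher. A direction shared by most members was thus not particular to the stress response lists.

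Blood and other tissue in the samples also varied. Hba-a1, alpha globin, was at 29.2, 3.51, 7.68 and 8.77 CPM against 7.85, 55.0, 5.49 and 40.8 CPM (1.16 ± 0.94), with control animal 6 and ABT263 animals 16 and 18 high. The median of 8 tested red cell genes was 0.92, with 0 past the threshold, and it ran from 0.46 without ABT263 animal 16 to 1.76 without control animal 6. Muscle and adrenal lists had 3 and 4 tested genes, with the summed adrenal level at 78.8 to 95.8 against 82.5 to 87.0 CPM. The 4 genes of the Y chromosome were tested in all kidneys and summed to 193 to 260 CPM with the control compound and 186 to 209 CPM with ABT263 (median -0.06). Of the glucocorticoid response, 21 genes listed after the data were seen, 0 were higher and 2 lower at an unadjusted p under 0.05, with a median of -0.24. The median was -0.02 without control animal 6 and -0.48 without ABT263 animal 16. Tsc22d3, which encodes GILZ, was at 56.3, 38.5, 37.3 and 49.0 against 30.3, 28.8, 31.1 and 32.0 CPM, without overlap (-0.57 ± 0.13, adjusted p = 0.566, number term 0.62, of opposite sign), whereas Fkbp5 overlapped (-0.43 ± 0.33).

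The remaining lists had 0 members past the threshold in all 8 kidneys. Acute phase genes, added after the data were seen, had the median farthest from 0 (0.68 over 16 tested, 1 higher and 0 lower at an unadjusted p under 0.05); the member was Hpx, hemopexin, at 0.332 to 0.960 against 0.867 to 3.31 CPM (1.98 ± 0.48). The acute phase median came from ABT263 animal 16: it was -0.18 without that kidney, and 0.02 without animals 6 and 16, where Hpx passed as higher. Nuclear-retained long noncoding RNAs had a median of 0.27, with Neat1, the scaffold of paraspeckles, at 442 to 1120 against 1040 to 1350 CPM (0.56 ± 0.23). Complement genes had a median of -0.19, NF-kB feedback genes -0.11 (number term -0.15) and androgen-dependent kidney genes -0.13. Medians were between -0.10 and 0.10 for the cell cycle (0.10), clock genes (-0.10), hypoxia (-0.09), cytochrome P450 genes (-0.07), efferocytosis (-0.04), mitochondrially encoded genes (-0.03), lysosomes (-0.01), glucose metabolism (0.02), smooth muscle (0.04) and adrenal cortex (0.04). The number terms of efferocytosis and glucose metabolism were -0.17 and 0.32. Urothelium genes, from the lining of the renal pelvis, had a median of 0.08 over 15 tested, which was 0.64 without control animal 6, the kidney with the highest sum, and -0.13 without control animal 8. Without animals 6 and 16 the urothelium median was 0.95 and 4 members passed as higher, Upk1a, Upk1b and Upk2 among them. In the same 6 kidneys 2 complement genes passed as lower, 2 mitochondrially encoded genes as higher, and 1 efferocytosis gene as higher with 2 lower. Clock and lysosome genes had 1 lower call each and glucose metabolism 1 higher call there. Over all rows in those kidneys 1.24% passed as higher and 1.02% as lower, so calls this few are given as counts only. Neutrophil genes could be tested in 2 of 14 cases, S100a9 being one (-0.53 ± 0.66, number term -1.02).

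The genes that differed between LOY and Control kidneys in the other table were then read in the treated animals. There, 167 of 14978 tested genes were higher (1.11%) and 9 lower (0.0601%) with LOY at an adjusted p of 0.05 in edgeR. This count rested on single kidneys, running from 0 to 607 when 1 of the 12 was left out. Of the 167, 163 were tested here: 133 had a lower value with ABT263, 41 were lower and 0 higher at an unadjusted p under 0.05, 9 did not overlap, and 0 passed. Their median was -0.28, against 0.00 over all rows. The median number term of the same genes in the LOY table was -0.27. In that table LOY animals 5, 8, 9 and 10 but only Control animal 3 were numbered 10 or below. The fit that gave the LOY calls had no number term. LOY thus went largely with low numbers there, as the control compound did here. The opposite directions of these genes therefore cannot be told apart from animal number. LOY and LOY + Control animals share the numbers 8, 9 and 10 in the labels, which do not say whether they are the same mice, so the 2 comparisons may not be independent.

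Members of that list with their own values show the range. Lyz2 was 1.21 with LOY (adjusted p = 0.0146) and -0.84 here, H2-Aa was 0.96 (adjusted p = 0.0166) and -0.56, and Ctss was 1.11 (adjusted p = 0.0146) and -0.46. Cxcl13, a chemokine that draws B cells, was 1.62 with LOY (adjusted p = 0.0330); here it was at 18.1, 3.18, 2.16 and 2.89 against 2.44, 2.02, 1.81 and 0.966 CPM, where control animal 6 made most of the difference (-1.85 ± 0.73). Havcr1 (1.56 with LOY), Lcn2 (2.14) and Spp1 (1.25) were higher here through animal 16, as given above. Without animals 6 and 16, 22 of 162 tested members passed as lower and 0 as higher, with a median of -0.49. Of the 9 genes lower with LOY, 7 were higher here, with a median of 0.28 (0.13 without control animal 8), and 1 was higher at an unadjusted p under 0.05. It was Slc5a6, a vitamin transporter, at 20.1, 19.7, 19.1 and 19.2 against 24.9, 33.6, 29.5 and 21.7 CPM, without overlap (0.49 ± 0.13, adjusted p = 0.657). Its number term was 0.44.

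The number of rows called depended on the kidneys used. With control animal 6 and ABT263 animal 16 both left out, 388 of 17180 rows passed in edgeR (2.26%), of which 213 rose (1.24%) and 175 fell (1.02%) with ABT263, against 0 with all 8. Both were left out because they stood apart in these data, which by construction lowers the spread within the groups, and 3 kidneys remained in each. Among the 16 genes of smallest p, 13 were in these calls. Bcl6 (2.12 ± 0.24, adjusted p = 0.0227), Vcan (2.22 ± 0.22, adjusted p = 6.90e-05), Ccn1 (-1.26 ± 0.10, adjusted p = 4.85e-06), Ier3 (-1.09 ± 0.11, adjusted p = 6.28e-05) and Herc3 (0.45 ± 0.08, adjusted p = 0.00677) passed. Ighg2c (adjusted p = 0.0695), Ttll10 (0.0585) and Tmem252 (0.190) did not. Of the 44 rows that DESeq2 called in all 8 kidneys, 28 were among the 388, as were all 11 that voom called. With 1 kidney left out at a time the count was 9 without control animal 6, 3 without ABT263 animal 16 (Bcl6, Ccn1 and Ier3), 1 without ABT263 animal 18 (Igkc) and 0 otherwise.

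**Figure D5:**
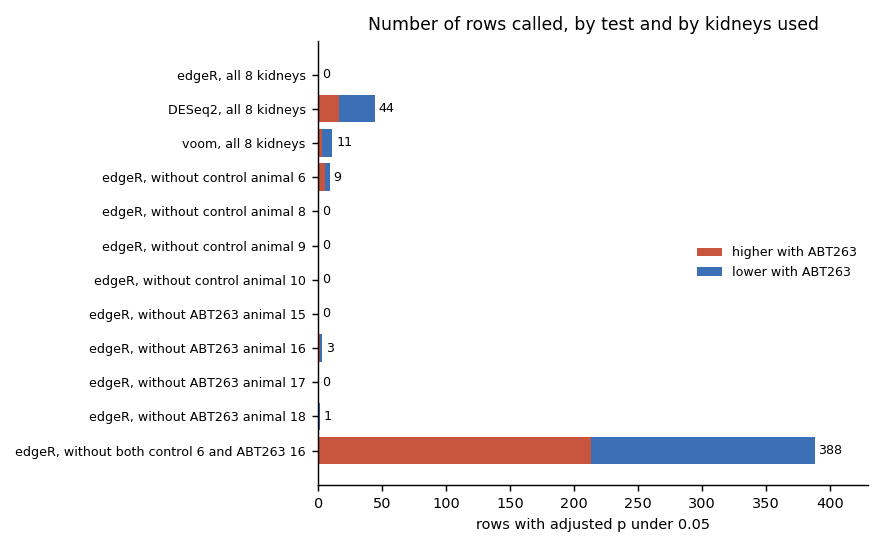
Number of rows with an adjusted p under 0.05, split by direction, for edgeR, DESeq2 and voom on all 8 kidneys and for edgeR with kidneys left out. The count is 0 with edgeR on all 8 kidneys, 44 with DESeq2, 11 with voom, and 388 without both control animal 6 and ABT263 animal 16.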

How the data were processed

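Kidney RNA from 8 mice was sequenced with 1 library per animal; the authors deposited whole-number counts per gene, and the submitters' processing notes name mm10. Not given in the sources used here were their aligner, annotation, counter and strandedness. Totals were 14587809 to 20791633. The replicate pairs differed by more than sampling noise: the lowest of 12 median squared count differences was 3.36 times its Poisson expectation. Whether replicates share a cage or batch is not stated.

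Counts were tested with the robust quasi-likelihood test of edgeR 4.0.16 under R 4.3.3, after TMM scaling and a filterByExpr filter (count 10, total 15), with Benjamini-Hochberg adjustment over all rows at 0.05. The 190 rows under 24 shared symbols stayed apart and are not named. CPM use TMM-scaled totals; each SE was derived from the F statistic. DESeq2 1.42.0 and voom in limma 3.58.1 were alternatives, as were other scalings, filters and left-out kidneys. The test was run on counts simulated with the dispersions fitted to these data. No kidney was set apart in that simulation, so it does not cover kidneys such as control animal 6 and ABT263 animal 16. The 12 kidneys of the other table were fitted alone, by group only for the LOY calls and with an added term for animal number over 10 for the number terms.

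Genes were named by smallest p (8 per direction, mean of at least 1 CPM), as fixed targets, as the smallest p of a list, or to complete a list's account. The comparison and the 55 gene lists were chosen with earlier results of these data known; 4 lists were added after these counts were seen and 2 came from the LOY table.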

Additional observations from a re-analysis of the deposited data

Results flagged for a closer look

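Within the groups of 4 kidneys, 29 of 280 sets of 4 values (10.4%) had 1 kidney set far from its 3 companions by Dixon's 95% limit. For independent sets chosen beforehand, chance gives about 1 in 20. These sets are not independent and come from the named genes and library measures. Some, such as Nr4a1 and Fos, were named to describe a kidney that stood apart. The share is therefore a description and cannot be set against that rate. ABT263 animal 16 was that kidney in 13 sets and control animal 6 in 10. No explanation was weighed.

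In ABT263 animal 16, injury and matrix genes were far above the other 3 ABT263 kidneys: Havcr1 at 735 CPM against 28.1 to 55.0, Lcn2 at 254 against 18.3 to 18.8, Spp1 at 17800 against 1410 to 2100 and Col1a1 at 175 against 45.8 to 61.7. Stress and signalling genes stood above them as well, with Jun at 83.5 against 38.5 to 42.8, Socs2 at 41.7 against 13.5 to 17.3, Per1 at 55.8 against 22.8 to 27.6 and Fkbp5 at 131 against 53.7 to 66.7. The same held for Mcl1 at 216 against 148 to 158, Hspa5 at 558 against 423 to 445 and C1qc at 39.3 against 28.3 to 29.6. That kidney was below the others for Ptprb, at 70.8 against 113 to 117, and for Nt5e, at 93.0 against 124 to 129.

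Control animal 6 was far above the other control kidneys for Nr4a1 (45.0 CPM against 5.68 to 5.88), Fos (16.1 against 2.40 to 3.46), Cxcl13 (18.1 against 2.16 to 3.18), Gstm1 (802 against 479 to 515), S100a9 (3.46 against 0.38 to 0.9) and Ddx3y (128 against 80.9 to 81.9). Its mitochondrially encoded share of counts was 11.1%, against 7.92% to 8.34%. It was below the other controls for Bcl2l2 (48.0 against 64.5 to 67.6), Fadd (7.69 against 13.5 to 14.1) and Batf3 (1.94 against 2.76 to 2.85).

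The other 6 cases were spread over 4 kidneys. Control animal 9 was high for Ccn1 (86.6 against 70.2 to 71.1) and low for Herc3 (78.3 against 91.3 to 92.8), and control animal 8 was low for Klk1 (840 against 1000 to 1010). ABT263 animal 18 was high for Vcam1 (53.1 against 42.8 to 44.1) and low for Dnajb1 (32.4 against 37.4 to 38.3), and ABT263 animal 17 was high for Cd74 (498 against 425 to 435).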

How the results depend on the processing

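The edgeR count of 0 in the 8 kidneys was also 0 with median-ratio, upper-quartile or plain library totals, without mitochondrially encoded rows, without a filter, with a mean of at least 1 CPM, without robust dispersion, at an adjusted p of 0.1, for a change over 1.2-fold and without rows that share a symbol. It was 44 with DESeq2 and 11 with voom, 0 to 9 with 1 kidney left out, and 388 without control animal 6 and ABT263 animal 16, a setting chosen after the data were seen. The count for LOY against Control was 176, and 0 to 607 with 1 kidney left out; edgeR gave 0 without Control animal 16 (2870 genes below an unadjusted 0.05) and 0 without Control animal 17 (2611 such genes). No paired analysis was possible because the control and ABT263 kidneys share no animal number.

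The sign turned without both kidneys for Nr4a1 (0.15), Havcr1 (-1.15), Spp1 (-0.62), Lcn2 (-0.82), S100a9 (0.23), Bcl2l2 (-0.01), Col1a1 (-0.62) and Pf4 (-0.33), and with voom for Havcr1 (-0.74), Spp1 (-0.36), Lcn2 (-0.40), S100a9 (0.29), Col1a1 (-0.38) and Pf4 (-0.24); voom gives less weight to libraries that stand apart. With 1 kidney left out, Nr4a1 ran from -1.56 to 0.14, Havcr1 from -0.98 to 1.76, Spp1 from -0.68 to 1.37, Lcn2 from -0.94 to 1.45, S100a9 from -0.85 to 0.56, Bcl2l2 from -0.03 to 0.12, Col1a1 from -0.39 to 0.48, Bcl2l1 from -0.16 to 0.02, Cd274 from -0.13 to 0.18, Pf4 from -0.27 to 0.34 and Tgfb1 from -0.15 to 0.09. Depth limits genes below the filter, Cdkn2a and Pdcd1 among them.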
